A study of Arabidopsis thaliana with 20 samples.

Results

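The response of wild-type Arabidopsis leaves to mild drought was read from 5 of the 20 arrays of a study of drought in leaves and stomata. The 5 arrays are those labelled as whole leaves of Col-0, the wild type, with 3 arrays from watered control plants and 2 from plants under drought. Plants were 5 weeks old per the sample labels, grew singly in pots in a climate chamber and either received defined volumes of water or had water withheld for 5 days, which kept the soil at a lower moisture content. Material was taken at the end of the light period, 5 to 8 plants were pooled for 1 biological replicate, and total RNA was labelled with Cy3 and hybridised to a single-colour Agilent array. Leaves of bam1, a homozygous line with a T-DNA insertion in the gene of the starch-degrading beta-amylase BAM1, went through the same treatment (3 control and 3 drought arrays) and serve here only to set the wild-type response beside another genotype.

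When leaves lose water they accumulate abscisic acid (ABA), the hormone that closes stomata and switches on protective genes. ABA binds receptors of the PYR/PYL family, the receptor then blocks clade A protein phosphatases (PP2C), and the SnRK2 kinases released from these phosphatases activate transcription factors of the ABF group. Downstream genes encode dehydrins and other late embryogenesis abundant (LEA) proteins, which protect proteins and membranes during drying, while leaf growth, which depends on cell division, wall loosening and water uptake into the vacuole, slows down.

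All signals are given as normalised log2 values, so that a difference of 1 is a 2-fold change. The 5 arrays had median processed signals of 210 to 269, 63.2% to 68.4% of their spots were well above background and 0 spots were saturated. Log2 signals correlated at r of 0.983 to 0.986 between replicates and at 0.977 to 0.979 between control and drought arrays, across probes, which are not independent replicates. BAM1 was at 11.75, 12.33 and 10.90 in watered leaves and at 13.06 and 12.64 in drought leaves, far above its group means of 6.72 in control and 7.76 in drought leaves of bam1, and the lowest Col-0 leaf array (10.90) lay above the highest bam1 leaf array (8.08). An array labelled as Col-0 stomata under drought stood at 7.81, against 13.46 to 13.97 on the other Col-0 stomata arrays. It entered the joint normalisation and the shared estimate of the spread, and 1644 probes were called when it was left out of the fit, with the normalisation unchanged. Spots marked as outliers by the scanner software were left out, and these were unevenly spread: 294 tested probes lacked control array 2, with a median log2 signal of 16.33 against 9.97 for all tested probes, while 44 to 117 probes lacked each of the other 4 arrays.

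Of 28279 probes tested, 1608 were called (5.69%), which means a Benjamini-Hochberg adjusted p under 0.05 in limma with a change of at least 2-fold. Of these, 623 (2.2%) were higher and 985 (3.48%) lower under drought. At the level of genes, each read from its brightest tested probe, 1112 of 17964 genes (6.19%) were called, 418 higher (2.33%) and 694 lower (3.86%). The shares of 2.33% and 3.86% are the background for the list counts below. Large changes were about as frequent in both directions, since 120 genes rose and 111 fell by 4-fold or more. The median change over all tested genes was -0.02. A further 2902 probes passed the adjusted p with a change under 2-fold. Such genes are named below for some lists only, so a gene not called may still have changed. The signals of both groups overlapped for 1 of the 1608 called probes, which were chosen for a difference between these same arrays. The share without overlap over all tested probes was not counted. Drought array 1 lay farther from the control mean than drought array 2 for 70.4% of the 1603 called probes measured on both, with a median distance of 1.503 against 1.31. Without drought array 1, 1107 probes were called, and without drought array 2, 1559. Of the 207 called genes named in the following, or listed by the same rule, 105 kept their call with any 1 of the 5 arrays left out, and 90 lost it without drought array 1. Control array 1 and drought array 1 were on 1 slide while the other 3 arrays were on slides of their own among these 5. With the slide as a block, 1579 probes were called, of which 1269 were among the 1608.

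Of the 7 tested clade A PP2C genes, whose products hold ABA signalling in check, 4 were called higher, 0 lower, and the median change was 1.19 (2.33% of all tested genes were called higher, and their median was -0.02). HAI1, a phosphatase of the highly ABA-induced group, was at 7.89, 7.86 and 7.44 in the 3 controls and at 11.69 and 11.22 in the drought samples. Both drought arrays thus lay above all controls, and the change was 3.72 ± 0.28 (SE; adjusted p 3.05e-06), a 13.2-fold rise. HAI2 (1.7 ± 0.46), HAB1 (1.35 ± 0.24) and ABI2 (1.19 ± 0.24) rose less, and ABI1 changed by 0.44 without passing the test (adjusted p 0.103). PP2CA (0.76, adjusted p 0.0148) and HAB2 (0.46, adjusted p 0.0281) passed the adjusted p with changes under 2-fold. Of the 4 calls, only HAI1 remained without drought array 1, and HAI2 was also lost without control array 2.

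On the receptor side the direction was opposite. Of 8 tested PYR/PYL genes, 2 were called lower (25%, against 3.86% of all tested genes) and 0 higher, with a median of -0.50. PYL4 was at 8.47, 8.32 and 8.41 in controls and at 7.18 and 7.41 under drought (-1.11 ± 0.24, adjusted p 0.00629), and PYL5 changed by -1.19 ± 0.32 (adjusted p 0.0203). Neither gene was called without drought array 1, and PYL5 was not called without control array 3. Among the 10 SnRK2 kinases, SNRK2.9 was called higher (1.18 ± 0.28; not without drought array 1), and SNRK2.6, the kinase known as OST1 that acts in guard cells, changed by 0.69 ± 0.39 (adjusted p 0.248). Because whole leaves were measured, fewer cells of a type and less RNA per cell cannot be told apart in any of these changes.

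In ABA metabolism the calls fell on breakdown and release of the hormone. Of 13 tested genes of ABA synthesis, release, breakdown and transport, 4 were called higher (30.8%, against 2.33% of all tested genes) and 0 lower. Of these, 3 encode ABA 8'-hydroxylases, the cytochrome P450 enzymes that start ABA breakdown, and BG1 (1.22 ± 0.28) encodes a glucosidase that frees ABA from its glucose ester. The call of BG1 was lost without drought array 1. CYP707A1 was at 6.43, 6.64 and 6.66 in control leaves and at 8.67 and 8.26 under drought, a rise of 1.89 ± 0.22 (adjusted p 5.84e-05). CYP707A2 rose by 1.28 ± 0.24, and CYP707A4, whose call was lost in turn without each of the 5 arrays, by 1.03 ± 0.32. NCED3, the dioxygenase whose activity limits ABA synthesis in stressed leaves, was at 9.44, 10.23 and 10.41 in controls and at 9.82 and 9.54 under drought. These ranges overlapped, and the change of -0.34 ± 0.24 did not pass the test (adjusted p 0.356). NCED5, another member of that family, stood at 6.22, 6.65 and 6.26 against 6.14 and 2.62, and was not called (adjusted p 0.0793), but it was called lower without drought array 1.

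Among transcription factors of the ABA pathway the calls were all in the higher direction. Of 17 tested factors, 6 were called higher (35.3%, against 2.33% of all tested genes) and 0 lower, with a median of 0.47. HB7, a homeodomain-leucine zipper factor induced by water deficit, was at 11.004, 11.19 and 11.55 in controls and at 14.37 and 13.64 under drought (2.76 ± 0.28, adjusted p 2.08e-05). Its relative HB12 rose by 1.46 ± 0.29. The bZIP factors ABI5 (1.54 ± 0.17), ABF3 (1.35 ± 0.20) and ABF2 (1.11 ± 0.17) rose as well, as did NAC019 (1.12 ± 0.27). Without drought array 1, 3 of the 6 genes kept their call (HB7, ABI5 and ABF3).

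The protective proteins held some of the strongest rises of the whole leaf. The list of dehydrin, LEA and RD/ERD/COR genes also holds TSPO, which is none of these. All 21 tested genes of the list had a positive change, and 9 were called higher (42.9%, against 2.33% of all tested genes). The count was 8 to 10 with any 1 of the 5 arrays left out. TSPO, an ABA-induced membrane protein, was at 4.73, 5.03 and 5.19 in controls, well above background on 2 of these 3 arrays, and at 11.07 and 9.96 under drought (5.53 ± 0.45, adjusted p 5.47e-06). LEA7 (at least 27.1-fold), LEA4-5 (at least 15.3-fold) and the dehydrin XERO1 (at least 8.34-fold) were not well above background on any control array. In these folds, a control signal below the dimmest one well above background on its array was raised to that level. The control signals of LEA7 were 2.41, 2.47 and 2.51, against 8.47 and 6.96 under drought.

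Other protective genes were already expressed in watered leaves. LTI30, a dehydrin that binds membranes, was at 11.38, 11.15 and 11.32 and reached 14.20 and 14.33, a rise of 2.98 ± 0.24 (adjusted p 4.63e-06) with little spread in either group. RD29B, a classical ABA reporter gene, went from 8.99, 8.16 and 8.91 to 12.24 and 11.498 (3.19 ± 0.45). RAB18, a dehydrin of the ABA response, rose by 2.62 ± 0.35 on its brightest probe, 2 of its 3 other probes were called too, and the range over these 3 was 0.91 to 2.83. LEA14 (1.27 ± 0.28) and the caleosin RD20 (1.01 ± 0.19) were just past 2-fold, and were lost without drought array 1 and control array 3, respectively. RD29A, which responds to cold and to osmotic stress, was among the brightest signals in every sample, at 16.87, 17.49 and 16.46 in controls and 17.22 and 16.80 under drought, and was not called (0.07 ± 0.37, adjusted p 0.922). The dehydrin list was also affected by missing spots, as 8 of its 21 genes lacked control array 2.

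**Figure D1:**
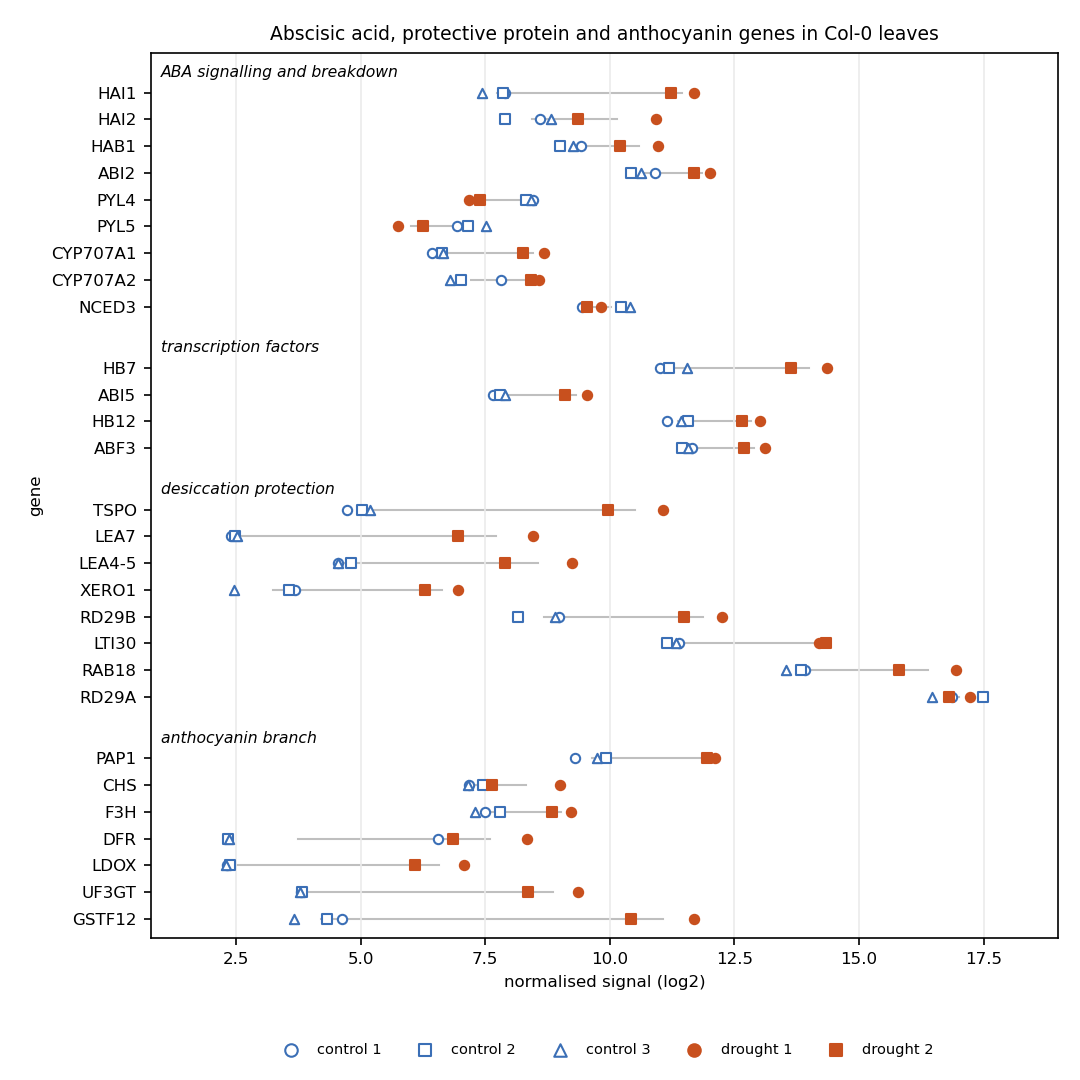
Normalised log2 signal (x axis) of single genes (y axis) on each of the 3 control arrays (open blue symbols) and 2 drought arrays (filled orange symbols) of Col-0 leaves; grey lines join the group means. Drought signals lie to the right of all controls for HAI1, HB7, TSPO and LTI30, to the left for PYL4 and PYL5, and overlap with the controls for NCED3 and RD29A.

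Osmolyte genes gave calls at single steps of their pathways. Of 9 tested genes of proline metabolism, P5CS1, which makes the first committed step of proline synthesis, rose from 12.62, 12.74 and 12.71 to 14.09 and 13.68 (1.2 ± 0.27, adjusted p 0.00717), and ERD5, the proline dehydrogenase of mitochondria, fell by 1.29 ± 0.25 on the log2 scale. The other 7 genes were not called, and the call of P5CS1 was lost without drought array 1. P5CS2 (0.93, adjusted p 0.000351) and P5CDH (0.85, adjusted p 0.0107) passed the adjusted p with changes under 2-fold. In the galactinol and raffinose list, GolS1 rose by 1.5 ± 0.28, GolS3 changed by -1.02 ± 0.19 and DIN10, a raffinose synthase-like gene known for its induction in darkness, dropped from 11.80, 11.91 and 11.83 to 8.40 and 9.16 (-3.07 ± 0.42, adjusted p 0.00021). The galactinol synthase GolS3 lost its call in turn without control array 1, control array 3 and drought array 1. SIP2 of this list (0.99, adjusted p 0.00639) passed the adjusted p with a change under 2-fold. Trehalose 6-phosphate phosphatases also split: TPPI rose (at least 7.22-fold), while TPPB (at least 5.58-fold), TPPA (-1.37 ± 0.22) and the synthase-like TPS9 (-1.07 ± 0.22; not without control array 3 or drought array 1) were lower, and 12 of the 16 tested genes were not called.

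The late, anthocyanin-specific branch of flavonoid synthesis held many of the strongest rises. Of its 9 tested genes, 6 were called higher (66.7%, against 2.33% of all tested genes) and 0 lower, and the median change was 3.18. GSTF12, a glutathione transferase that carries anthocyanins towards the vacuole, was the strongest rise among named genes, from 4.63, 4.32 and 3.66, not well above background on any control array, to 11.699 and 10.42, or at least 116-fold (6.86 ± 0.49, adjusted p 2.7e-06). A second, weaker probe of GSTF12 was called with a change of 1.15. The glycosyltransferase UF3GT (at least 33.1-fold) and the dioxygenase LDOX (at least 12.4-fold), which makes anthocyanidins, were likewise not well above background on any control array. DFR, the reductase that opens this branch, stood at 6.56, 2.34 and 2.35 in controls and at 8.35 and 6.86 under drought. Control array 1 thus came close to drought array 2, and the call of DFR (3.85 ± 1.01, adjusted p 0.0174) was lost in turn without control array 2, control array 3 and drought array 1. The malonyltransferase 5MAT (3.18 ± 0.73) and AT4G14090 (2.55 ± 0.49) rose as well, but both calls rested on drought array 1, and 3 of the 6 genes remained called without it.

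Earlier steps of the pathway moved less. Of 11 tested genes of phenylpropanoid and early flavonoid synthesis, F3H (1.5 ± 0.32) and the flavonol regulator MYB111 (1.19 ± 0.36) were called higher, and neither was called without drought array 1. CHS, chalcone synthase, stood at 7.17, 7.47 and 7.15 in controls and at 9.01 and 7.64 under drought, which put the drought arrays far apart and the change of 1.06 below the threshold (adjusted p 0.09). The MYB activator PAP1 rose from 9.30, 9.92 and 9.73 to 12.11 and 11.94 (2.37 ± 0.26, adjusted p 4.05e-05). The repressors MYBL2 (-1.2 ± 0.20) and LBD38 (-1.72 ± 0.28) fell, so that an activator and both called repressors moved in opposite directions.

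**Figure D2:**
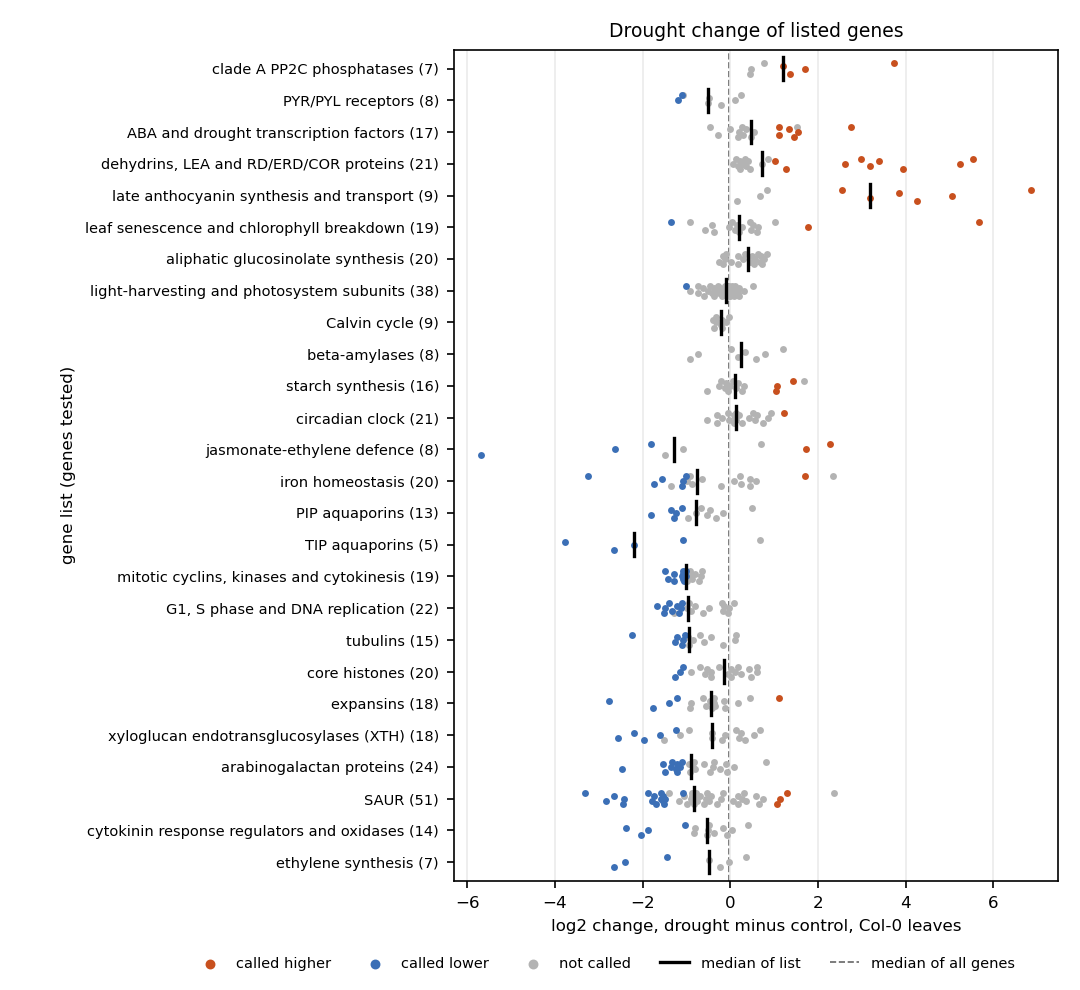
Log2 change under drought (x axis) of every tested gene of 26 gene lists (y axis, number of genes tested in parentheses); orange and blue points were called higher and lower, grey points were not called, black bars mark the median of each list and the dashed line the median of all tested genes. The PP2C, dehydrin and late anthocyanin lists reach far to the right, whereas aquaporins, cell division, tubulin and arabinogalactan protein lists lie to the left.

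Of 19 tested genes of senescence and chlorophyll breakdown, 2 were higher (10.5%) and 1 lower (5.26%), against 2.33% and 3.86% of all tested genes. SAG29, also known as the sugar exporter SWEET15, rose from 3.39, 2.56 and 2.61 to 8.45 and 8.61, at least 41.1-fold, with near equal signals on both drought arrays (5.67 ± 0.61, adjusted p 3.42e-05). SGR2 of the STAY-GREEN family of chlorophyll breakdown rose by 1.76 ± 0.27, and the glutamine synthetase GLN1;4 fell (-1.36 ± 0.18). Breakdown genes of amino acids were called in 3 of 15 cases, all higher (20%, against 2.33% of all tested genes). MGL, a methionine gamma-lyase, went from 10.29, 10.51 and 10.45 to 13.15 and 12.27 (2.29 ± 0.32, adjusted p 0.00028), BCAT2 of branched-chain amino acid breakdown rose by 1.79 ± 0.39, and LKR/SDH of lysine breakdown by 1.72 ± 0.35. Without drought array 1 only MGL remained called. In nitrogen use, the asparagine synthetase ASN1 rose by 1.04 ± 0.27 (not called without control array 2 or drought array 1), and the nitrate transporter NRT1.1 fell by 1.08 ± 0.17 on the log2 scale.

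Of 38 genes of light-harvesting and photosystem subunits, 0 were called higher and 1 (2.63%) lower, near the 2.33% and 3.86% of all tested genes, with changes between -1.01 and 0.52 and a median of -0.11. The 1 call, LHCB2.3, stood at 15.79, 17.14 and 15.87 in controls and at 15.25 on both drought arrays, it was lost without control array 2 and without either drought array, and it became -0.72 with outlier spots kept. LHCB4.3 (-0.74, adjusted p 0.00438), PSAH2 (-0.93, 0.0175) and PSBY (-0.74, 0.0277) passed the adjusted p with changes under 2-fold. Control array 2 gave no value for 20 of the 38 genes, whose spots were marked as outliers. In the Calvin cycle, 9 of 9 genes were not called by limma (2 had an unadjusted p under 0.05) and had changes of -0.40 to -0.03.

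Calls among starch genes lay on the side of synthesis. Of 16 tested genes of starch synthesis, 3 were called higher (18.8%, against 2.33% of all tested genes). These were APL3 and APL4, large subunits of ADP-glucose pyrophosphorylase, and GBSS1, the granule-bound starch synthase. APL3 rose from 11.37, 11.54 and 11.25 to 12.87 and 12.75 (1.42 ± 0.20, adjusted p 0.000254), and was the only one of the 3 called without drought array 1. None of the 8 tested beta-amylases (3 with an unadjusted p under 0.05) and none of 15 genes of starch phosphorylation, debranching and maltose use (3) was called by limma. The median changes of these lists were 0.25 and 0.19. Some of their genes passed the adjusted p with changes under 2-fold. These were BAM6 (0.80, adjusted p 0.00649), BAM9 (-0.74, 0.017), LSF2 (0.75, 0.0047) and PHS2 (-0.73, 0.0459). For BAM1 itself the change was 1.19 ± 1.08 (adjusted p 0.497), with an SE drawn from all 8 groups of the study, among them the Col-0 stomata array with a low BAM1 signal. Sucrose synthases SUS2 (1.35 ± 0.30) and SUS3 (1.34 ± 0.34) rose, and both calls were lost without drought array 1 (SUS3 also without control array 3). Among 19 sugar transporters, SWEET4 rose from 10.39, 10.10 and 9.63 to 11.85 and 11.66 (1.71 ± 0.23), and SWEET2 of the vacuole (-1.74 ± 0.22) and the hexose importer STP1 (-1.10 ± 0.18) fell.

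Water channels of the vacuolar and of the plasma membrane gave calls in the lower direction only. Of 5 tested tonoplast aquaporins (TIP), 4 were called lower and 0 higher, and of 13 plasma membrane aquaporins (PIP), 5 were called lower and 0 higher (3.86% of all tested genes were called lower). TIP2;3 (0.68) and PIP2;5 (0.50) had positive changes and were not called. TIP2;1 was one of the brightest signals in watered leaves, at 16.28, 17.23 and 16.32, and dropped to 12.42 and 13.26, a 13.7-fold fall (-3.77 ± 0.44, adjusted p 9.46e-05) that its 4 other probes shared with -3.74 to -3.32. TIP1;1 fell from 14.91, 15.51 and 14.84 to 12.06 and 12.79 (-2.66 ± 0.28). TIP1;2 changed by -2.19 ± 0.19, measured on 4 arrays since its spot on control array 2 was left out.

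Among the PIPs, PIP2;7 was strongest, with 13.92, 14.83 and 14.56 in controls and 12.51 and 12.73 under drought (-1.82 ± 0.25, adjusted p 0.000268). PIP1;3 (-1.35 ± 0.22), PIP2;3 (-1.28 ± 0.20), PIP2;1 (-1.23 ± 0.26) and PIP1;5 (-1.11 ± 0.16) were called too. The control signals of PIP2;1 were 15.89, 16.98 and 15.86, so that control array 2 stood about 1 log2 unit above the others. With outlier spots kept, the changes of PIP2;1, PIP1;5 and TIP2;2 were -0.93, -0.98 and -0.93, and none of the 3 was called. Without control array 2, 3 PIP and 3 TIP genes were called, and PIP1;5 and TIP2;2 were not called without drought array 1 either.

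Genes of cell division had lower signals under drought. Each of 19 tested genes of mitosis and cytokinesis had a negative change, and 11 were called (57.9%, against 3.86% of all tested genes called lower). The changes lay between -1.49 and -0.66, with a median of -1.02. CYCB1;2, a cyclin of the entry into mitosis, was at 8.70, 8.72 and 8.59 in controls and at 6.79 and 7.58 under drought (-1.49 ± 0.24, adjusted p 0.000757). HINKEL, a kinesin of the cell plate, fell by 1.41 ± 0.31 on the log2 scale, and CDC20.1, an activator of the anaphase-promoting complex, by 1.28 ± 0.26. The list sits at the 2-fold limit, and its count of calls moved accordingly: 2 genes were called without drought array 1, 15 without drought array 2, and 1 with the normexp background correction, where the median was -0.58. Many of these genes are dim in leaves, with a list mean of 7.73 to 8.00 in controls against 6.6 and 7.08 under drought.

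The list for G1, S phase and DNA replication gave steadier counts. Of 22 genes, 9 were called lower (40.9%) and 0 higher in the main test. The lower count was 9 to 10 with any 1 array left out (5 with normexp). PCNA1, the sliding clamp of DNA polymerase, fell from 9.77, 10.10 and 9.61 to 8.11 and 8.51 (-1.52 ± 0.18, adjusted p 8.57e-05). TSO2, a subunit of ribonucleotide reductase, fell from 13.39, 13.53 and 13.32 to 11.78 and 12.07 (-1.49 ± 0.17), and RNR1, another subunit, changed by -1.1 ± 0.15. The helicase subunits MCM2, MCM4, MCM6 and MCM7 changed by -1.34 to -1.12, and the replication licensing factor CDC6 by -1.67 ± 0.21. Of 20 core histone genes, 3 were called lower (15%, against 3.86% of all tested genes), with a median of -0.15. Without drought array 1, 0 were called, and without control array 2, 2. Tubulins, the building blocks of microtubules, were lower in 6 of 15 cases (40%) with a median of -0.93. The most strongly lowered was TUB1, at 8.78, 8.55 and 9.28 against 6.91 and 6.35 (-2.24 ± 0.30). None of 4 tested inhibitors of cyclin-dependent kinases was called by limma, with a median of -0.12. The 1 with an unadjusted p under 0.05, SIM, also passed the adjusted p (0.0299), with a change of -0.68.

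Wall-loosening genes were also called mainly lower. Of 18 tested expansins, which loosen walls in growing cells, 4 were called lower and 1, EXLB1 (1.1 ± 0.24), higher. These are 22.2% and 5.56%, against 3.86% and 2.33% of all tested genes. EXLB1 was not called without drought array 1. EXPA8 was at 13.48, 13.97 and 13.95 in controls and at 10.78 and 11.29 under drought (-2.76 ± 0.22, adjusted p 4.63e-06), and EXPA1 fell from 13.72, 13.82 and 13.57 to 11.77 and 12.09 (-1.77 ± 0.21). Of 18 xyloglucan endotransglucosylases (XTH), enzymes that cut and rejoin wall polymers, 5 were called lower (27.8%) and 0 higher. They were led by XTH6, at 11.34, 11.54 and 11.57 against 8.31 and 9.52 (-2.57 ± 0.32, adjusted p 0.000112), XTH8 (-2.20 ± 0.33) and XTH7 (-1.97 ± 0.31). Arabinogalactan proteins, glycoproteins of the cell surface, had 10 of 24 genes called lower (41.7%) and 0 higher, with a median of -0.89. AGP7 changed by -2.48 ± 0.33 and the other 9 by -1.54 to -1.09. AGP4 was measured without control array 3, and its change of -1.21 became -0.57 with outlier spots kept. Without drought array 1, 5 genes of this list and 3 XTH genes were called. Of 5 cellulose synthases of the primary wall, 0 were called by limma (3 had an unadjusted p under 0.05), and their changes were -0.64 to -0.24. CESA1 (adjusted p 0.0265) and CESA5 (0.0353) passed the adjusted p with changes under 2-fold.

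Auxin-responsive families were lower in part. Of 51 tested SAUR genes, small auxin-induced genes of cell expansion, 16 were called lower (31.4%) and 3 higher (5.88%), with a median of -0.84. SAUR1 was at 8.57, 9.09 and 9.06 in controls and at 5.11 and 6.07 under drought, where only 1 of both arrays was well above background (-3.32 ± 0.31, adjusted p 1.45e-05). The genes SAUR19, SAUR22 and SAUR23 of 1 chromosomal cluster fell to a like extent (-1.73 to -1.59). They are similar in sequence, and whether each probe reads only its own gene was not tested. Counts without drought array 1 were 11 lower and 1 higher. IAA19, an auxin-induced repressor of auxin response, fell from 10.75, 10.75 and 10.55 to 8.59 and 8.49 (-2.15 ± 0.19, adjusted p 8.56e-06), IAA6 changed by -1.74 ± 0.30, and IAA28 rose by 1.08 ± 0.17 (not called without drought array 2). The other 23 of 26 genes in the Aux/IAA list, in which 3 auxin response factors also carry an IAA synonym, were not called. Of this list, 3.85% were called higher and 7.69% lower, against 2.33% and 3.86% of all tested genes. The amido synthetase gene GH3.17, whose product removes free auxin, fell by 2.41 ± 0.27 on the log2 scale.

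Genes of other growth hormones were called in the lower direction only. Called lower were 33.3% of brassinosteroid and of gibberellin genes, 28.6% of cytokinin and 42.9% of ethylene synthesis genes, against 3.86% of all tested genes. In brassinosteroid metabolism, BR6OX2, a late enzyme of synthesis, went from 10.17, 10.06 and 10.25 to 8.06 and 8.48 (-1.89 ± 0.24, adjusted p 0.000118), and BAS1, an enzyme of inactivation, changed by -2.16 ± 0.24. A gene of synthesis and a gene of inactivation were thus both lower, and 4 of 6 genes were not called. Of 14 cytokinin genes, 4 were lower: the response regulator ARR15, at 9.08, 9.37 and 9.33 against 6.46 and 7.30 (-2.38 ± 0.32), and the oxidases CKX6 (-2.03 ± 0.20), CKX4 (-1.88 ± 0.28) and CKX1 (-1.03 ± 0.27). CKX1 was not called without control array 2 or without either drought array. Of 12 gibberellin genes, 4 were lower, among them GA3OX1 of synthesis (-1.48 ± 0.35), GA2OX2 of inactivation (-2.24 ± 0.51) and GASA6 (-1.81 ± 0.31), but 2 were called without drought array 1, and GA2OX2 was not called without drought array 2. In ethylene synthesis, 3 of 7 genes were lower. Of these, the ACC synthases ACS4 (-2.39 ± 0.45) and ACS5 (at least 5.48-fold lower) lost their calls without drought array 1.

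Of 16 wax genes, 2 were called higher and 2 lower (12.5% each, against 2.33% and 3.86% of all tested genes). Of these, the wax ester synthase WSD1 (1.15 ± 0.30) and CER1 of alkane formation (1.0 ± 0.28) were higher, CER4 of primary alcohol formation (-1.92 ± 0.45) and the lipid transfer protein LTPG2 (-1.09 ± 0.25) were lower, and 0 of these 4 calls were made without drought array 1. ADS1, an acyl desaturase, dropped from 11.46, 11.48 and 10.67 to 4.22 and 7.10, where only 1 of both arrays was well above background (-5.54 ± 0.64, adjusted p 6.15e-05). The drought arrays differed widely from each other, and both lay far below every control. The other 7 acyl desaturases were not called. FAD5 (-0.85, adjusted p 0.0336) and FAD3 (-0.76, adjusted p 0.0341) passed the adjusted p with changes under 2-fold. The median of the 8 desaturases was -0.57, and 1 of them, FAD2, had a positive change (0.95, adjusted p 0.0768).

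Jasmonate and defence genes gave calls in both directions. The vegetative storage proteins VSP1 and VSP2, acid phosphatases induced by jasmonate, rose strongly: VSP1 was at 10.04, 10.56 and 10.34 in controls and at 14.45 and 14.71 under drought, a 19.3-fold rise (4.27 ± 0.47, adjusted p 4.05e-05), and its 3 other probes gave 1.96 to 3.49. VSP2 rose by 4.11 ± 0.52 on its brightest probe and by 4.48 on the other. In the same list, 11 of 12 genes had positive changes. AOC1, an allene oxide cyclase of jasmonate synthesis, passed the adjusted p (0.024) with a change of 0.89, under 2-fold, and the only other call was JMT, a jasmonate methyltransferase, at -1.16 ± 0.33, not called without control array 1, control array 3 or drought array 1. Of 9 JAZ repressors, JAZ5 rose (1.55 ± 0.29), but not without drought array 1.

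In the branch of defence that needs jasmonate together with ethylene, 2 of 8 genes were higher and 3 lower. These are 25% and 37.5%, against 2.33% and 3.86% of all tested genes. PR4, a chitin-binding protein, fell from 12.53, 13.29 and 14.24 to 10.14 and 11.29 (-2.64 ± 0.47, adjusted p 0.00162). The defensin PDF1.2 was at 6.31 and 6.75 on control arrays 1 and 2 but at 12.26 on control array 3. Under drought it was at 2.72 and 2.79, not well above background. Its change (-5.68 ± 1.47, adjusted p 0.0167; at least 48.2-fold lower) therefore took much of its size from control array 3 and was -3.78 without that array, and the call was lost in turn without each drought array. ORA59, an activator of this branch, changed by -1.81 ± 0.57, a call lost without any 1 of the 5 arrays, whereas ERF1, another activator, and the defensin PDF1.4 rose by 1.72 ± 0.40 and 2.27 ± 0.46. ERF1 was not called without drought array 1, and PDF1.4 not without drought array 2. In salicylic acid defence, PR5 (-1.29 ± 0.29) was the 1 call among 10 genes (10% lower, against 3.86% of all tested genes). This call was lost without either drought array. Of glucosinolate genes, 0 of 20 of the aliphatic kind were called by limma (7 had an unadjusted p under 0.05), with a median of 0.40. Among these, CYP79F1 (0.83, adjusted p 0.00318) and MAM1 (0.71, adjusted p 0.00672) passed the adjusted p with changes under 2-fold. CYP81F2, a hydroxylase of indole glucosinolates, fell from 7.97, 8.97 and 8.99 to 5.74 and 5.60 (-2.97 ± 0.39, adjusted p 0.000159). It was the 1 call among 7 indole genes (14.3% lower), which all had negative changes with a median of -0.44. SOT16 of this list (-0.44, adjusted p 0.0275) passed the adjusted p with a change under 2-fold.

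**Figure D3:**
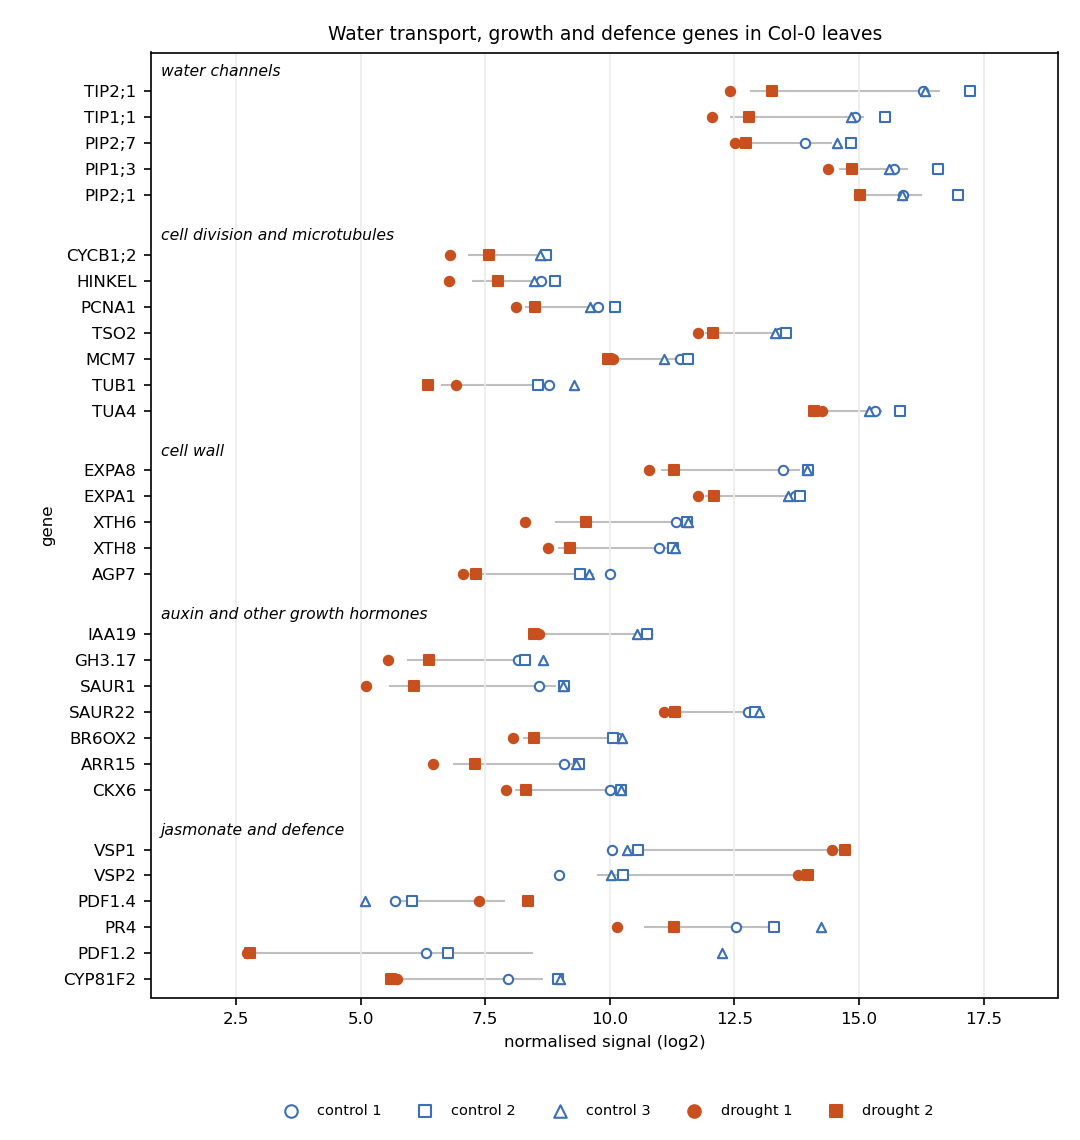
Normalised log2 signal (x axis) of water transport, growth and defence genes (y axis) on the 3 control arrays (open blue symbols) and 2 drought arrays (filled orange symbols) of Col-0 leaves; grey lines join the group means. Drought signals lie to the left of all controls except for VSP1, VSP2 and PDF1.4, and PDF1.2 shows control array 3 at 12.26, far above the other controls.

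Among metal and nutrient genes, the iron list held most calls. Of its 20 tested genes, 5% were called higher and 30% lower, against 2.33% and 3.86% of all tested genes. FER1, a ferritin that stores iron in plastids, rose from 11.22, 11.29 and 10.80 to 12.61 and 13.02 (1.71 ± 0.21, adjusted p 0.000112). Lower were 6 of 20 genes: BHLH100, an iron deficiency factor not well above background under drought (at least 8.91-fold), AT1G47400 (-1.73 ± 0.45) and AT1G47395 (-1.55 ± 0.46), the ferric reductases FRO6 (-1.11 ± 0.15) and FRO7 (-1.09 ± 0.16), and NAS4 of nicotianamine synthesis (-1.0 ± 0.25). These counts depended on single arrays, since 1 of the 6 was called without drought array 1 (FRO6), and 3 genes of the list were called lower without drought array 2 and 3 without control array 3, but 9 without control array 1. The superoxide dismutase CSD2 was at the limit with -1.03 ± 0.19, and was not called without control array 2 or drought array 1. Of 11 phosphate starvation genes, the phosphatase PAP17 rose (1.3 ± 0.27) and MGD3 of galactolipid synthesis fell (-1.15 ± 0.32), and neither was called without drought array 1. That is 9.09% in each direction, against 2.33% higher and 3.86% lower of all tested genes. In sulphate uptake and sulphur starvation, 0 of 10 genes were called by limma (2 had an unadjusted p under 0.05). Of these 2, GGCT2;1 (-0.65, adjusted p 0.0277) also passed the adjusted p with a change under 2-fold.

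Several of the 15 named genes with the largest rises and of the 15 with the largest falls belong to none of these pathways. HSFA6A, a heat shock factor, rose from 5.63, 6.15 and 6.02 to 10.50 and 9.73 (4.18 ± 0.36, adjusted p 7.88e-06). NUDT24 of the Nudix hydrolase family, not well above background on any control array, rose to 9.31 and 8.78, at least 35.6-fold. DAA1, an ATPase gene, rose by 4.25 ± 0.37, and HIPP22, a metal-binding isoprenylated protein, at least 19.2-fold. Each of these 4 genes stayed called in every alternative that used limma. The neighbouring lipid transfer protein genes LTP3 (4.02 ± 0.54) and LTP4 (4.69 ± 1.2) rose as well. LTP4 stood at 2.84, 6.72 and 3.15 in controls and at 7.82 and 10.04 under drought, and PELPK1, a cell wall protein, at 3.69, 2.85 and 5.96 against 6.32 and 11.11. Both genes varied widely within groups, and both calls were lost without drought array 2, LTP4 also without control arrays 1 and 3 and PELPK1 also without control array 2. Elsewhere, HSP70 of the cytosolic chaperones rose by 1.7 ± 0.35 (not called without drought array 1) among 10 heat shock genes, of which HSFA7A fell (-1.2 ± 0.22). RVE2, a MYB-like factor, was the 1 call (1.22 ± 0.19) among 21 clock genes (4.76% higher, against 2.33% of all tested genes). CCA1 (0.87, adjusted p 0.0193), RVE8 (0.75, 0.0238) and LNK1 (0.62, 0.0216) passed the adjusted p with changes under 2-fold. Of the 21 clock genes, 15 had positive and 6 negative changes.

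Among the strongest falls, AACT1, an acyltransferase gene, went from 8.99, 9.45 and 11.37 to 4.40 and 4.58, at least 43.6-fold (-5.45 ± 0.60, adjusted p 4.05e-05), again with control array 3 highest. ARGOS, an auxin-induced promoter of organ growth, went from 7.87, 8.90 and 7.55 to 2.74 and 4.73, at least 19.5-fold. The other falls on this list without a place in the pathways above were ICME-LIKE2 (at least 11.9-fold), CYP71B22 (at least 10.9-fold), GATL10 (at least 9.65-fold), PUM9 (at least 8.77-fold), RTFL1 (at least 7.91-fold), UCC2 (at least 7.58-fold) and ST4C (at least 6.58-fold). All 7 were well above background on the 3 control arrays and on 0 drought arrays, and GATL10 was not called without drought array 2. With normexp background correction, ST4C, RTFL1, PUM9 and UCC2 were not called.

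Markers of the leaf's cell types were compared next. The 6 mesophyll markers were the brightest set, with a mean of 16.74 to 16.99 in controls and of 16.68 and 16.69 under drought over the 4 markers measured on all 5 arrays, and 0 of the 6 were called, with changes of -0.53 to -0.01. Of 9 guard cell markers, the potassium channel GORK was called higher (1.12 ± 0.26), KAT1 changed by -0.53, and the list mean was 9.54 to 9.86 in controls and 9.65 and 9.70 under drought. Of 6 epidermal markers, PDF1 was called lower (-1.81 ± 0.43), and the mean over 5 of them was 10.76 to 11.10 against 10.13 and 10.33. Both marker calls were lost without drought array 1. All 9 vascular markers had negative changes of -0.90 to -0.02 with 0 called. The vascular XCP1 (-0.90, adjusted p 0.0018), epidermal ATML1 (-0.65, 0.0239) and mesophyll CA1 (-0.53, 0.0482) passed the adjusted p with changes under 2-fold. Of the 4 root and 4 flower markers, 3 and 1 were tested and 0 called. The part of such shifts in the changes above was not tested.

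The response in bam1 leaves was set beside that of Col-0, as the arrays of both genotypes are separate samples. In bam1, 1447 of 28205 probes (5.13%) were called, 421 higher (1.49%) and 1026 lower (3.64%). By gene, 1008 of 17894 were called there (5.63%), 291 higher (1.63%) and 717 lower (4.01%). Of the 1608 probes called in Col-0, 1541 were tested in bam1 and 1502 of these (97.5%) changed in the same direction there, 855 were called in both genotypes (53.2% of the Col-0 calls and 59.1% of the bam1 calls) and 0 were called in opposite directions. Over the 1541 probes, the median absolute change in Col-0, where they were chosen, was 1.37. The median change in bam1, counted as positive in the Col-0 direction, was 1.08. When the difference between genotypes was itself tested, 3 of 28715 probes were called (0.0104%; 3647 at an unadjusted p under 0.05), and 0 of these 3 were among the 1608.

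Several genes called in Col-0 had low or opposite values in bam1 without a called difference. RVE2 changed by 1.22 in Col-0 and by -0.06 in bam1 (difference 1.28 ± 0.26, adjusted p 0.115), ABI2 by 1.19 and 0.13 (1.07 ± 0.32, adjusted p 0.244), PDF1.4 by 2.27 and -0.58 (2.84 ± 0.62, adjusted p 0.145) and the glutathione transferase GSTU8 by 2.9 and -1.42 (4.31 ± 1.06, adjusted p 0.187). GSTU8 stood at 6.13 and 9.49 on the drought arrays of Col-0, and its call was lost without the second and without control array 3. The median of the PP2C list was 1.19 in Col-0 and 0.30 in bam1, and those of the dehydrin (0.73 and 0.95), late anthocyanin (3.18 and 3.24), TIP (-2.19 and -2.05) and mitotic lists (-1.02 and -1.02) lay close together. Those of the iron (-0.76 and -0.29), ethylene synthesis (-0.50 and -1.29) and XTH lists (-0.41 and -0.93) lay farther apart, and 6 iron genes were called lower in Col-0 against 0 in bam1. For tubulins, 6 genes were called lower in Col-0 and 2 in bam1. Differences between genotypes were tested only per probe, not per list. The strongest named rise and the strongest named fall were also called in bam1, GSTF12 with 7.40 and PDF1.2 with -6.03.

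**Figure D4:**
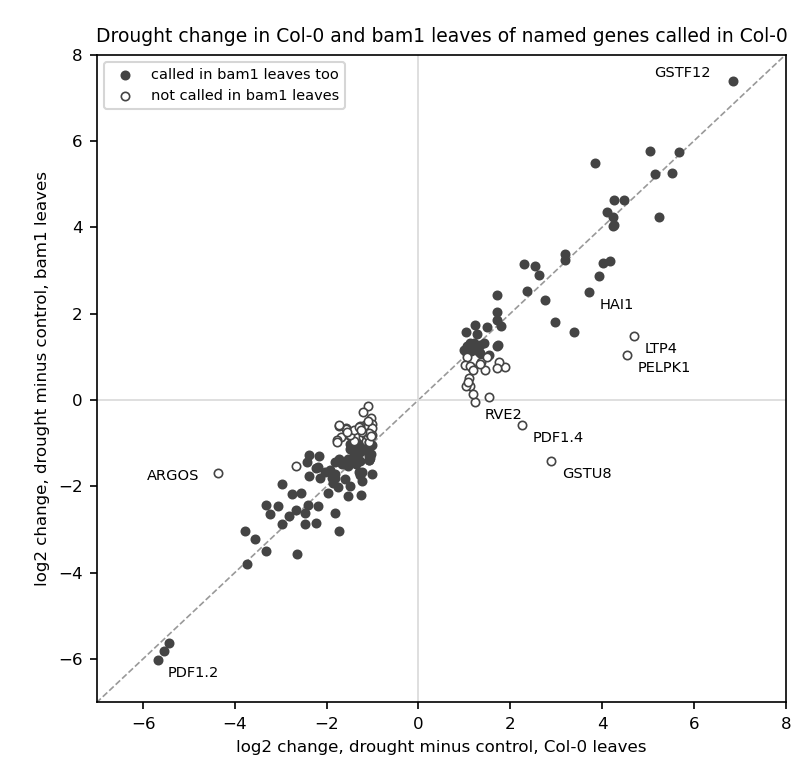
Log2 change under drought in Col-0 leaves (x axis) and bam1 leaves (y axis) of 201 named probes called in Col-0; filled points were called in bam1 too (136), open points were not, and the dashed line marks equal change. Points were chosen for a change past 2-fold in Col-0, most follow the line, and RVE2, PDF1.4 and GSTU8 lie on the other side of 0 in bam1.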

How the data were processed

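Total RNA of 20 samples was hybridised by the authors to single-colour Agilent arrays. The deposited scanner files hold, per the file headers, spot intensities from Feature Extraction 11.5.1.1, already background-corrected (the processed signal), with flags for outlier, saturated and well-above-background spots. The authors also deposited a matrix of log2 signals, quantile-normalised and median-centred in GeneSpring, which was used as an alternative only; differences of the other 4 arrays from control array 1 correlated with those of the scanner files at r of 0.993 to 1, across probes. The number of arrays limits the precision.

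Processed intensities were taken to log2 and quantile-normalised over 20 arrays. Outlier spots were left out and spots of a probe were averaged. Probes well above background on all arrays of either leaf Col-0 group were tested with limma 3.58.1 in R 4.3.3, with a mean for each of 8 groups, and calls needed at least 2-fold and an adjusted p (Benjamini-Hochberg) under 0.05. SE are limma's moderated standard errors. Each replicate pooled plants. The authors grew plants anew for each kind of stress and ran the drought experiment several times, but which arrays came from which run is not given in the sources used here, so p-values measure the spread between these samples. Of 43603 probes, 34348 (78.8%) matched 25410 RefSeq genes by locus, and a gene was read from its tested probe of highest mean signal. The slide was a term only in an alternative fit. "At least" folds set the brighter group's mean against the dimmer group's signals. A dimmer signal under the lowest one well above background on its array was raised to it. Where none was that low, as for GSTF12, the value is the plain fold.

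The 62 gene lists, the members and the tests were chosen with earlier results of these data known. Named were called members of the lists, 8 uncalled members, the 15 largest rises and 15 largest falls without overlap of groups, probes called for a difference between genotypes, and BAM1. On simulated data with 28279 probes and 200 changed for this comparison, 83 of 100 changes of 1.5 and 98 of 100 changes of 3 (log2) were called, with 4 false calls. Figures were drawn with Python 3.11.15, pandas 2.3.3 and matplotlib 3.10.9.

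Alternatives were another scaling (75th percentile), normexp background correction (offset 50, on median rather than mean spot signals, which were not used here), the deposited log2 matrix, other filters, outlier spots kept, other sets of arrays in the fit, a variance trend, slide and replicate blocks, the methods' t-test after a one-way ANOVA, and leaving out each array. Promoter motifs were not analysed here.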

Additional observations from a re-analysis of the deposited data

Results flagged for a closer look

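The drought change differed between Col-0 and bam1 leaves for 3 probes, each past an adjusted p of 0.05 in limma for the difference itself and each higher in Col-0. For AT2G41330 the difference was 1.72 ± 0.17 (SE, adjusted p 0.00117), with group means of 8.63 and 9.25 in control and drought leaves of Col-0 and of 10.51 and 9.41 in bam1. For AT3G19680 it was 2.75 ± 0.35 (adjusted p 0.0156), with means of 6.28 and 7.26 in Col-0 and of 9.36 and 7.59 in bam1. For EXO, a gene of cell expansion, 1 probe gave 4.21 ± 0.56 (adjusted p 0.0178), with means of 6.26 and 6.31 in Col-0 and of 10.49 and 6.34 in bam1. In all 3 cases the control leaves of bam1 held the highest mean of the 4 groups, and none of the 3 was called for drought in Col-0. The number of such probes was 0 with the slide as a block, 1 with a replicate block, and 2 to 12 with 1 Col-0 leaf array left out. The bam1 control leaves were on slides 5 and 6, which held no Col-0 leaf array.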

How the results depend on the processing

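The 1608 calls became 897 with normexp (379 higher and 518 lower) and 15 with the methods' t-test after Benjamini-Hochberg adjustment (5 higher and 10 lower; 1506 unadjusted). Leaving out 1 of the 5 arrays gave 1107 to 1663 calls, 452 to 663 of them higher and 655 to 1024 lower. The other alternatives stayed within 1.5 times of the 1608. Probes whose drought change differed between genotypes numbered 3, but 19 with the 75th percentile, 7 with normexp, 5 without a filter, 6 with only the groups compared, 0 with the slide as a block and 2 to 12 with 1 array left out. The cause was not tested.

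The labels do not say that replicate numbers pair samples, and deviations of same-numbered samples correlated at 0.0322 and 0.0821. With a replicate block, 1568 probes were called (602 higher and 966 lower), 12 of 207 named genes lost their call, 1 probe differed between genotypes, and EXO in Col-0 was at -0.0465.

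Among named genes, directions turned in the alternatives run only for NCED3, EXO and RD29A, which were not called. NCED3 was at 0.379 within the slide that held both groups. EXO ranged from -0.143 to 0.365 and RD29A from -0.167 to 0.348 with 1 array left out, and RD29A was at -0.0053 with normexp. Of the 207 named called genes, 64 lost their call with normexp, 30 with the slide as a block, 25 with only the groups compared, 12 with outlier spots kept and 4 with the 75th percentile. Without drought array 1, 90 lost it. With 2 drought arrays, the spread of the drought group is known poorly.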
